A study of Mus musculus with 6 samples.

Results

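Genes that direct dendritic cells and lymphocytes to their places were followed in mouse lung: the chemokines Ccl17, Ccl22, Ccl21a and Cxcl13, and the receptors Ccr4, Ccr7, Cxcr5 and S1pr1. They were taken by gene symbol from the deposited gene lists and make up 8 of the 29492 genes listed in any of 6 single-cell RNA libraries. Each library came from digested lung of 1 male C57BL/6J mouse aged 12 weeks, on day 3 after treatment, with 2 biological replicates in each of 3 groups. The first group had SLC activation 7 times (labelled SLC-Gq) and LPS at 1 mg/kg, and is called SLC plus LPS here. The second had LPS at 1 mg/kg alone, and the third was a control given PBS. LPS is the bacterial endotoxin used to inflame the lung, and SLC stands for the subcoeruleus nucleus of the brainstem. The labels do not say how the nucleus was activated or when relative to LPS. SLC activation without LPS was not analysed here, so its values are seen only on top of LPS. Pairs of values below give replicate 1 and then replicate 2 of a group, and CPM is the UMI count (counted RNA molecules) of a gene scaled to 1000000 UMIs of the cells named.

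Chemokines are small secreted proteins that cells follow through receptors on their surface. CCL17 and CCL22 are made mainly by dendritic cells and act on CCR4, a receptor of helper and regulatory T cells. CCL21 is made by lymphatic vessels and draws cells that carry CCR7, which are dendritic cells that have taken up antigen and matured and T and B cells bound for lymph nodes. CXCL13 draws B cells through CXCR5 and builds B cell follicles. S1PR1 senses sphingosine 1-phosphate, the lipid that lets lymphocytes leave tissue and lymph nodes, and in blood vessels it keeps the endothelial barrier closed.

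Ccl22 and Ccl17 carry the clearest changes of the 8 genes, and they lie in 1 cluster on chromosome 8, with Cx3cl1 as the only protein-coding gene between them in the RefSeq annotation. The stretches around their transcription starts are shown because both genes were lower after LPS. Each runs from 250 bases before to 50 bases after the start, 5′ to 3′, from RefSeq on build GRCm38.p6 (the deposited counts are on GRCm39, per the submitters' processing notes). Ccl17 lies at chr8:94810203-94810502 and Ccl22 at chr8:94745434-94745733, both on the plus strand. Capitals mark the only match found in either stretch to the 6 motifs searched on both strands.
Ccl17: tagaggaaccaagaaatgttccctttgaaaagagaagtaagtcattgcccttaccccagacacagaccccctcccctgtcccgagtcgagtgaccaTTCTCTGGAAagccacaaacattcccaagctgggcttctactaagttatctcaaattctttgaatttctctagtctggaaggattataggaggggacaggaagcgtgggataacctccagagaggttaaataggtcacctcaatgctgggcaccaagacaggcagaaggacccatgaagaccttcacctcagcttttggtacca
Ccl22: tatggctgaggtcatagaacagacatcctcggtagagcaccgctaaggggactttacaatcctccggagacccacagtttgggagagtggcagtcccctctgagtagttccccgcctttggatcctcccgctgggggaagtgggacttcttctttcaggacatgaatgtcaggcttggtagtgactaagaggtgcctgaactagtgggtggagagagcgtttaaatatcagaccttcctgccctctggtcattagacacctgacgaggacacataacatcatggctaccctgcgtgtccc
The match is to the STAT motif TTCNNNNGAA and begins 154 bases before the Ccl17 start. The same motif was in 6.95% of 32851 mouse promoters of this length. The other motifs searched were AP-1 (TGANTCA, in 7.81% of promoters), kappaB (searched by its degenerate consensus, 4.51%), IRF (GAAANNGAAA, 3.44%), ETS (GAGGAAGT, 3.2%) and CRE (TGACGTCA, 1.79%). Promoters were at hand for 5 of the 8 genes, and the only other match in them was an AP-1 match, TGAGTCA, 143 bases before the Ccr4 start. A match is a stretch of letters and not a measured binding site.

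The libraries held 11608 to 13710 cells that passed the quality limits, with 26900471 to 43282030 UMIs in those cells. A cell had a median of 1134 to 2606 UMIs, and the median number of genes per cell was 647 to 1098. Cells were assigned to types by marker genes that did not include any of the 8, and since marker genes assigned the cells, their shares describe the assignment and do not test it. Xcr1 was seen in 76.5% of cells called type 1 conventional dendritic cells (cDC1) and in 0.628% of other cells. Fscn1 marked 76.7% of mature dendritic cells against 1.54% of other cells, and Mmrn1 marked 87.4% of lymphatic endothelial cells against 0.624%. Replicate 2 of LPS stood apart from the other libraries, with a low estimated share of free RNA within its cells (2.88% in T cells, against 16.8% to 31.3% in the other libraries), 6.34% nonclassical monocytes against 0.278% to 1.67% elsewhere, and only 13 mature dendritic cells. Between 0 and 6 cell barcodes were shared by any 2 libraries. With 2 mice per group the p-values speak only for the spread between these mice, and an exact permutation test of 2 against 2 could not go below 0.333.

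Each of the 8 genes had 1 or a few sources in the lung. Ccl22 was highest in mature dendritic cells, at 534 CPM as the mean of the 6 libraries, followed by cDC1 at 289 CPM and type 2 conventional dendritic cells (cDC2) at 152 CPM. Ccl17 averaged 283 CPM in cDC2, 279 CPM in cDC1 and 267 CPM in mature dendritic cells, an order whose steps were smaller than the spread between libraries. Ccl21a averaged 1148 CPM in lymphatic endothelial cells and 6.42 CPM or less in every other type except the few erythroid cells (17.2 CPM). Cxcl13 had sources in both fibroblasts (412 CPM) and interstitial macrophages (339 CPM), whose order differed between libraries.
On the receptor side, Ccr7 averaged 1825 CPM in mature dendritic cells, 528 CPM in cDC2, 268 CPM in B cells, 177 CPM in cDC1 and 111 CPM in T cells. Cxcr5 averaged 99.6 CPM in B cells and 22.1 CPM in mature dendritic cells, the latter from 7 UMIs in SLC plus LPS, 6 in LPS and 3 in control. Ccr4 was sparse and peaked in T cells at 13.7 CPM, ahead of group 2 innate lymphoid cells (ILC2) at 8.07 CPM. The ILC2 level came from 0 UMIs in SLC plus LPS, 3 in LPS and 3 in control. S1pr1 averaged 1279 CPM in blood endothelial cells, with lymphatic endothelial cells (340 CPM), B cells (247 CPM) and T cells (234 CPM) far below. The 313 CPM of basophils or mast cells is too thinly based to rank. It came from 1 UMI in 4 cells of SLC plus LPS, 0 in 5 cells of LPS and 1 in 19 control cells. By the share of cells with at least 1 UMI the leading type was the same, except that mature dendritic cells led for Ccl17 and interstitial macrophages for Cxcl13: 82.9% of mature dendritic cells for Ccr7, 74.4% of blood endothelial cells for S1pr1, 71.4% of lymphatic endothelial cells for Ccl21a and 41.5% of mature dendritic cells for Ccl22. The leading shares were lower for Ccl17 (31.4% of mature dendritic cells), Cxcl13 (13.2% of interstitial macrophages), Cxcr5 (10.9% of B cells) and Ccr4 (2.09% of T cells). After each cell was thinned to 500 UMIs the leading type was unchanged for 7 of the 8 genes, and for Ccr4 it became ILC2. That lead rests on 0.621% of 161 ILC2 in control replicate 1 and 5.41% of 37 in LPS replicate 2, with none elsewhere.

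**Figure D1:**
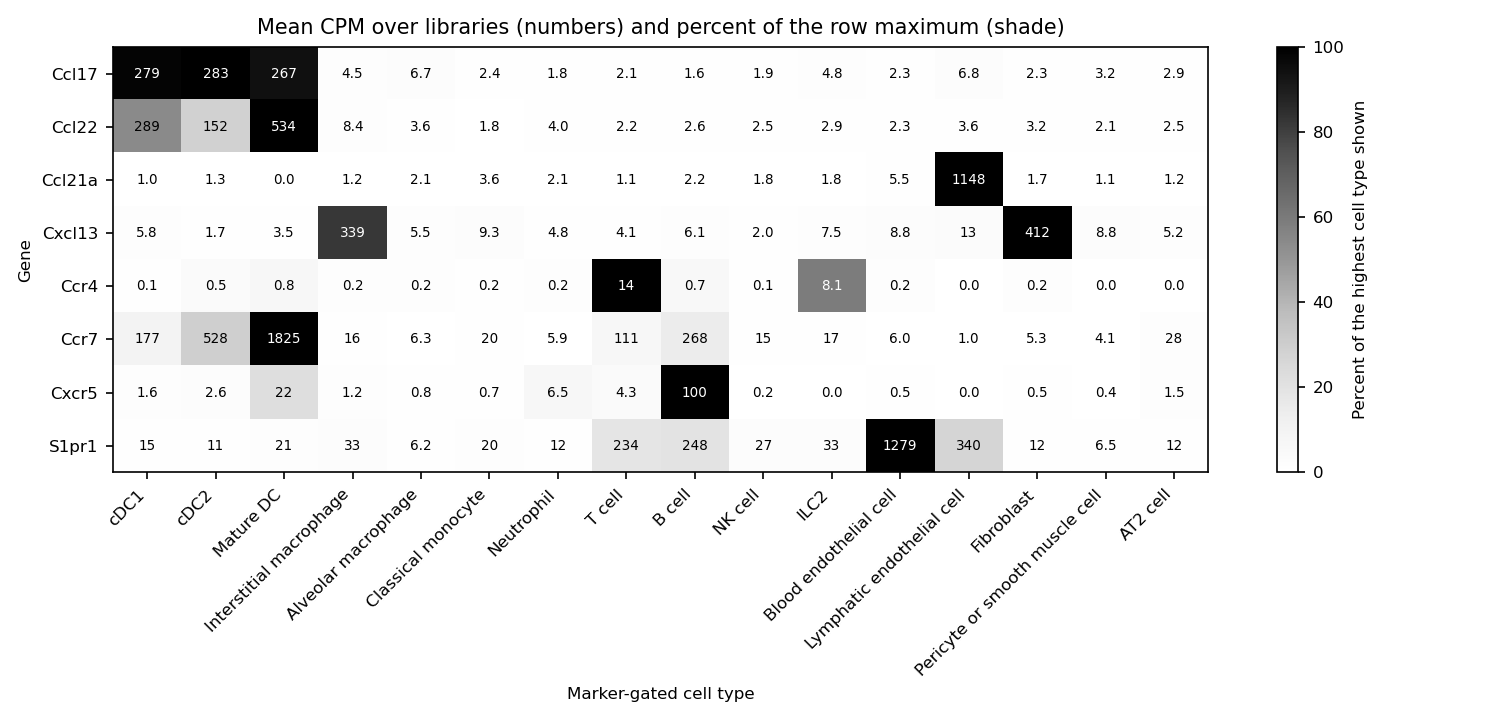
Rows are the 8 genes and columns are cell types; numbers give the CPM as the mean of the 6 libraries, and the shade gives it as a percentage of the row's highest value. Ccl17 and Ccl22 are led by the 3 dendritic cell columns, Ccl21a by lymphatic endothelial cells (1148 CPM), and S1pr1 is led by blood endothelial cells (1279 CPM).

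Over all cells of a library, the chemokines of dendritic cells and lymphatic vessels were low after LPS with or without SLC activation, and no receptor passed the test. Ccl22 was at 2.66 and 2.01 CPM in SLC plus LPS, 2.82 and 2.08 CPM in LPS and 44.1 and 45.01 CPM in control lungs. Ccl17 was at 5.51 and 4.13 CPM in SLC plus LPS, 2.90 and 2.75 CPM in LPS and 22.5 and 47.4 CPM in control. For both genes each of the 4 treated libraries was below both control libraries. The log2 fold changes below come from edgeR's quasi-likelihood test with TMM scaling and Benjamini-Hochberg adjustment. Over whole libraries the scaling adds 0.37 (SLC plus LPS against control) and 0.37 (LPS against control) to the log2 ratio of CPM values. An unscaled whole-library ratio is lower by that amount. In mature dendritic cells the scaling adds −0.12 and −0.18 in the same order, and other cell types have their own shifts.
For Ccl22 the log2 fold change was −3.88 (SE 0.31, adjusted p = 0.0133) for SLC plus LPS against control and −3.81 (SE 0.31, adjusted p = 0.0159) for LPS against control. For Ccl17 it was −2.50 (SE 0.42, adjusted p = 0.0261) and −3.26 (SE 0.43, adjusted p = 0.0202) in the same order. These were the only 2 of the 8 genes called in either comparison, both lower, where 12.4% of 17900 genes were called in either direction for SLC plus LPS against control (7.17% lower) and 7.84% for LPS against control (3.88% lower). The 2 comparisons share their control mice. In a whole library a loss of cells and less RNA per cell cannot be told apart, and dendritic cells were fewer: cDC1 made up 0.149% and 0.255% of cells in SLC plus LPS, 0.350% and 0.0861% in LPS and 1.87% and 2.30% in control. The share of cDC2 was 0.209% and 0.139%, 0.233% and 0.138%, and 1.08% and 1.58% in the same order, whereas mature dendritic cells were 0.313% and 0.502% in SLC plus LPS, 0.518% and 0.112% in LPS and 0.450% and 0.386% in control. Without either control library no gene in the whole table was called, and the Ccl17 difference for SLC plus LPS against control was also lost without SLC plus LPS replicate 1 (adjusted p = 0.0983) or replicate 2 (0.149), as was that of Ccl22 without replicate 2 (0.0875); over all alternatives these adjusted p-values ranged up to 0.174 for Ccl17 and 0.154 for Ccl22.

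Between SLC plus LPS and LPS, none of the 8 genes passed by edgeR or by DESeq2, and 1 had an unadjusted p under 0.05 by edgeR. That gene was Cxcr5, the B cell receptor for CXCL13, at 3.12 and 3.31 CPM in SLC plus LPS and 5.19 and 6.33 CPM in LPS (log2 fold change −0.84, SE 0.31, unadjusted p = 0.0300, adjusted p = 0.922). Both SLC plus LPS libraries were below both LPS libraries. B cells were 1.08% and 2.57% of cells in SLC plus LPS against 3.74% and 5.38% in LPS, and the level of Cxcr5 within B cells is given further below. Of all 17900 genes 0% were called in this comparison (488 had an unadjusted p under 0.05, and DESeq2 called 5 higher and 12 lower).

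**Figure D2:**
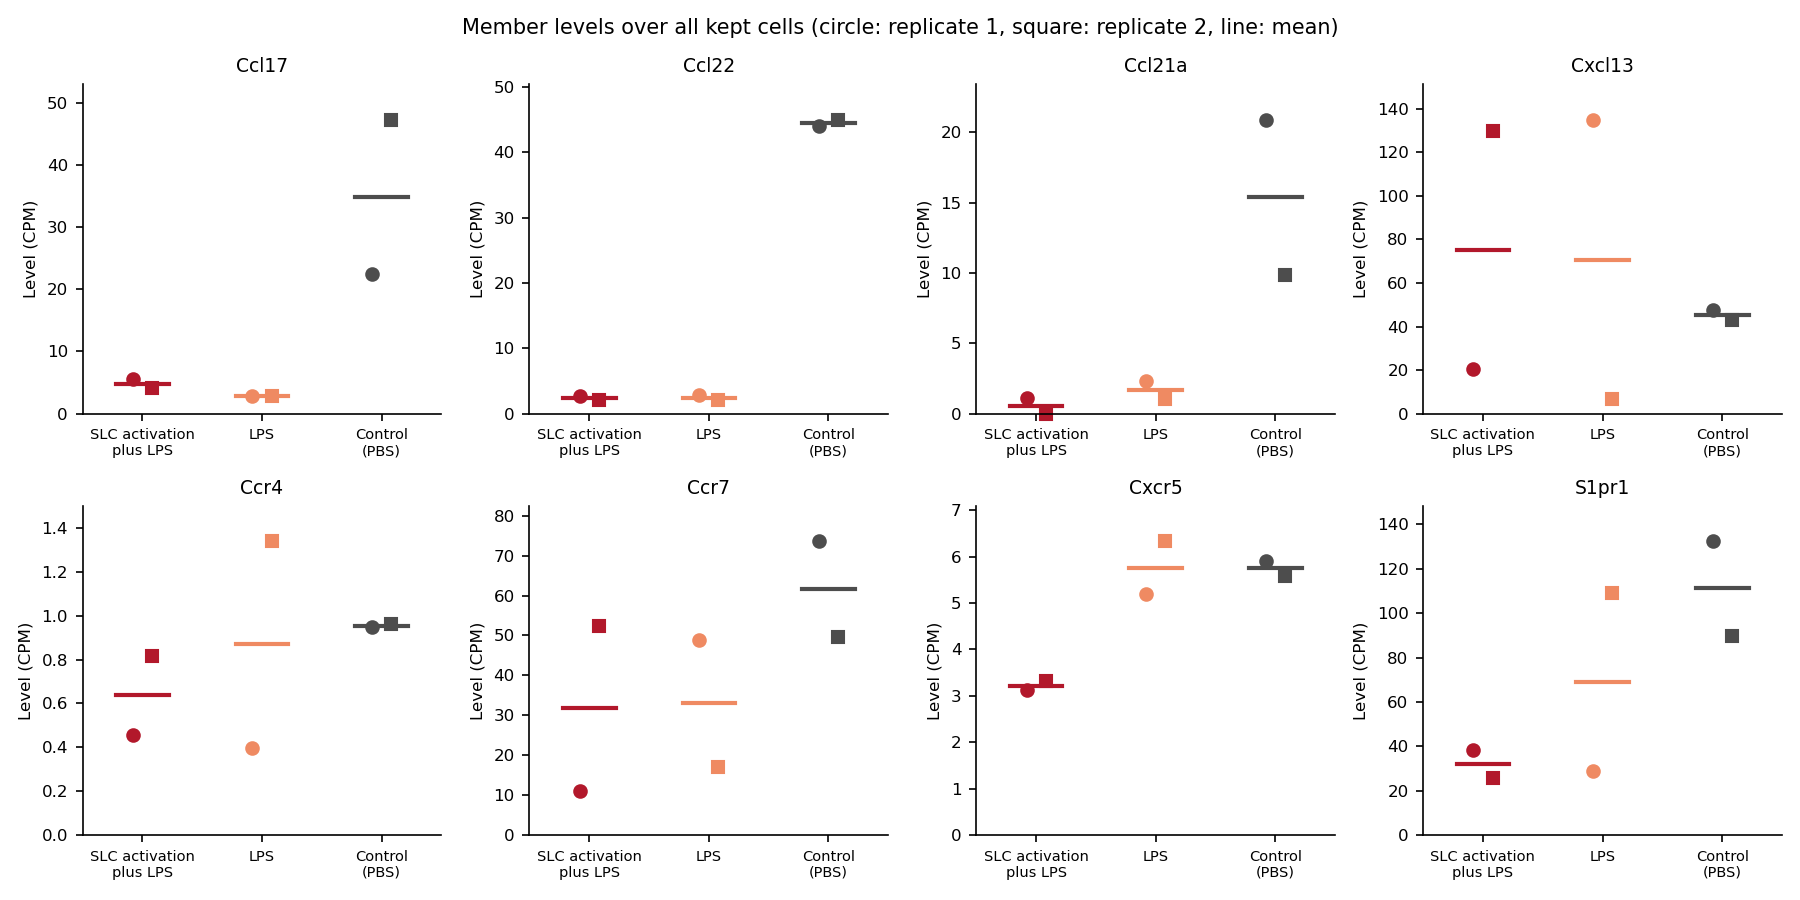
Each panel is 1 gene, with its CPM over all kept cells of a library on a linear axis from 0; circles are replicate 1, squares replicate 2, and the line is the group mean. Ccl17 and Ccl22 sit far below control in all 4 treated libraries, while Cxcl13, Ccr7 and S1pr1 spread within a treated group as widely as between groups.

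Within mature dendritic cells Ccl22 was also lower after LPS, while most of these cells had Ccr7 in every group. Mature dendritic cells had 331 and 176 CPM of Ccl22 in SLC plus LPS, 117 and 33.6 CPM in LPS and 1463 and 1081 CPM in control. The 3 groups did not overlap, with SLC plus LPS between LPS and control. The value of LPS replicate 2 rests on 2 UMIs in 1 cell. The cells behind these values numbered 42 and 65 in SLC plus LPS, 71 and 13 in LPS and 57 and 48 in control, and this cell type was added to the tests after the data had been seen. By edgeR, the log2 fold change of Ccl22 was −2.42 (SE 0.46, adjusted p = 0.0177) for SLC plus LPS against control, and −3.96 (SE 0.52, adjusted p = 0.00278) for LPS against control. Of 3301 genes tested in mature dendritic cells, 1.97% were called for SLC plus LPS against control (1% lower), 1.33% for LPS against control (0.818% lower) and 0% for SLC plus LPS against LPS.
Ccl22 stayed below the threshold for LPS against control under every alternative (highest adjusted p 0.0158). For SLC plus LPS against control it passed 0.05 without SLC plus LPS replicate 2 (adjusted p = 0.0681, the highest) and with the crossed replicate block (0.0562). Between SLC plus LPS and LPS the log2 difference of Ccl22 was 1.53 (SE 0.53, unadjusted p = 0.0112), which did not pass after adjustment (adjusted p = 0.996). A Ccl22 UMI was found in 50% and 29.2% of mature dendritic cells in SLC plus LPS, 15.5% and 7.69% in LPS and 73.7% and 72.9% in control. After thinning to 500 UMIs the shares were 11.9% and 9.23%, 7.04% and 0%, and 31.6% and 41.7% in the same order, with both control libraries still above the others. Neutrophils, which are not a source of Ccl22, had a UMI in at most 1.42% of cells in any library, with medians of 1038 to 2501 UMIs against 2159 to 4403 in mature dendritic cells.

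Ccl17 fell in mature dendritic cells of the LPS group, less firmly than Ccl22. Its level was 357 and 118 CPM in SLC plus LPS, 40.1 and 134 CPM in LPS and 408 and 544 CPM in control. Both treated groups were below both control mice, and they overlapped each other. Its log2 fold change was −1.09 (SE 0.54, adjusted p = 0.413) for SLC plus LPS against control and −2.98 (SE 0.65, adjusted p = 0.0486) for LPS against control. The call for LPS was lost under several alternatives, with an adjusted p of 0.201 without LPS replicate 1, 0.147 under a stricter cell gate and 0.0925 with the replicate block. In control mature dendritic cells with Ccl22, 54.8% and 71.4% also had Ccl17, against 0% and 23.1% of cells without it. In SLC plus LPS the same shares were 47.6% and 26.3% of cells with Ccl22, against 28.6% and 4.35% of cells without it. LPS had 27.3% and 100%, against 6.67% and 25%, and the 100% is 1 cell. These cells were not thinned, and a cell with more UMIs shows either gene more often.

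Ccr7, the receptor that takes dendritic cells to lymph nodes, did not pass the test in the same cells. Mature dendritic cells had 1305 and 2798 CPM of Ccr7 in SLC plus LPS, 2371 and 789 CPM in LPS and 2386 and 1297 CPM in control. The groups overlapped, with the control values between the lowest and the highest treated ones. For Ccr7 the log2 fold change was 0.03 (SE 0.51, adjusted p = 0.994) for SLC plus LPS against control and −0.34 (SE 0.52, adjusted p = 0.893) for LPS against control, errors wide enough for changes of the order of 1 on the log2 scale. A Ccr7 UMI was present in 85.7% and 89.2% of mature dendritic cells in SLC plus LPS, 90.1% and 76.9% in LPS and 82.5% and 72.9% in control. Among mature dendritic cells with Ccr7, 58.3% and 31.0% had Ccl22 in SLC plus LPS, 17.2% and 10% in LPS and 76.6% and 88.6% in control. The groups did not overlap in this share either, but the 10% of LPS replicate 2 is 1 of 10 cells.

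**Figure D3:**
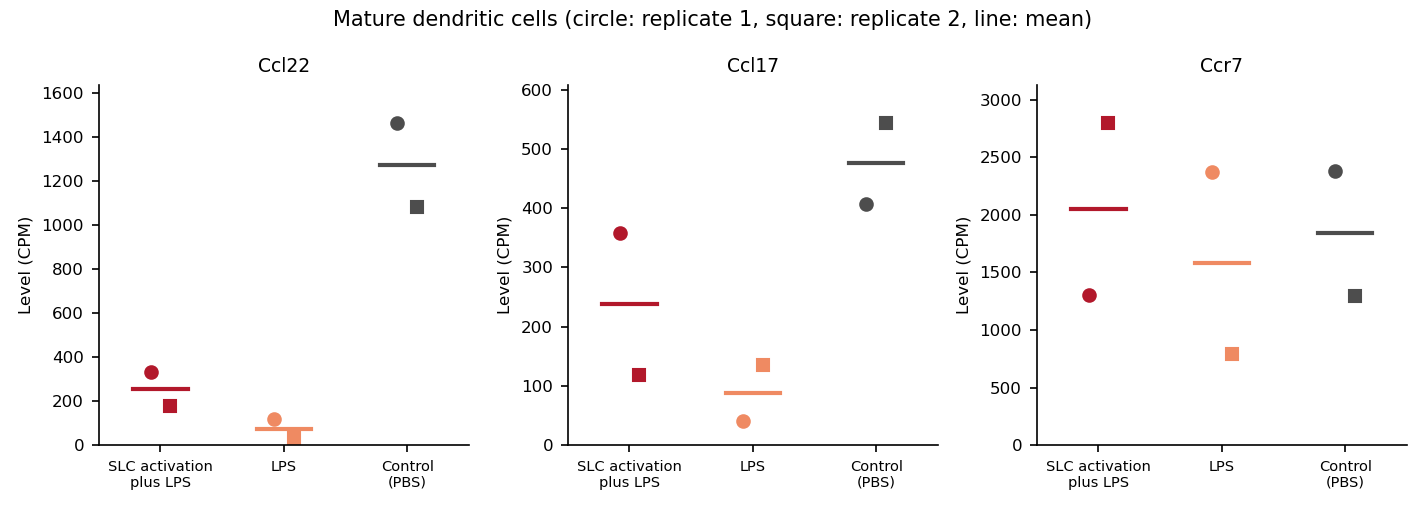
CPM of Ccl22, Ccl17 and Ccr7 in mature dendritic cells of each library on a linear axis from 0; circles are replicate 1, squares replicate 2, and the line is the group mean. Ccl22 runs from 33.6 to 331 CPM in the treated libraries and from 1081 to 1463 CPM in control, while the 3 groups overlap for Ccr7.

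The conventional dendritic cells were not tested type by type, since some treated libraries held fewer than the 20 cells set for the main tests. In cDC1, Ccl22 was at 62.9 and 5.43 CPM in SLC plus LPS (20 and 33 cells), 26.9 and 704 CPM in LPS (48 and 10 cells) and 499.7 and 435 CPM in control (237 and 286 cells). In cDC2 it was at 36.4 and 109 CPM in SLC plus LPS, 13.5 and 112 CPM in LPS and 321 and 317 CPM in control. All but 1 of the 8 treated values, that of the 10 cDC1 of LPS replicate 2, were below control. Ccl17 in cDC2 was at 291 and 233 CPM in SLC plus LPS, 20.2 and 235 CPM in LPS and 342 and 577 CPM in control, and in cDC1 at 21.0 and 0 CPM, 59.3 and 924 CPM, and 212 and 456 CPM in the same order. With cDC1, cDC2 and mature dendritic cells summed, a unit added after the data had been seen, Ccl22 was at 170 and 90.8 CPM in SLC plus LPS, 55.4 and 262 CPM in LPS and 542 and 443 CPM in control. On this sum the log2 fold change was −2.19 (adjusted p = 0.0847) for SLC plus LPS against control and −1.98 (adjusted p = 0.134) for LPS against control, so neither passed. Mature dendritic cells made up 42 of 90 and 65 of 116 cells of the sum in SLC plus LPS, 71 of 151 and 13 of 39 in LPS and 57 of 431 and 48 of 530 in control, so that this sum mixes the make-up of the cells with their level.

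Elsewhere, Ccl22 and Ccl17 were near the level that free RNA would give, and yet most of the calls within cell types fell there. Over 12 cell types large enough to test, the 8 genes had 38 tests in each comparison, of which 3 were called for SLC plus LPS against control, 3 for LPS against control and 0 for SLC plus LPS against LPS (4 with an unadjusted p under 0.05, and 0 by DESeq2). Over all genes of these types 1.28%, 1.34% and 0.00752% of tests were called in the same order. All 6 calls were lower values of Ccl22 or Ccl17 in neutrophils or macrophages. In neutrophils Ccl22 was at 0.807 and 0.639 CPM in SLC plus LPS, 0.234 and 0 CPM in LPS and 7.99 and 14.5 CPM in control, where near-empty barcodes gave an expected free RNA level of 0.386 and 0.794, 0.181 and 0.0509, and 7.95 and 7.28 CPM in the same order. In alveolar macrophages Ccl22 was at 0.394 and 0 CPM in SLC plus LPS, 1.11 and 0.634 CPM in LPS and 9.995 and 9.75 CPM in control, with 7.88 and 7.60 CPM expected from free RNA in control. Free RNA and these levels moved together, and its part in these calls was not tested. Interstitial macrophages stood above it, with 0.281 and 1.89 CPM of Ccl22 in SLC plus LPS, 2.58 and 9.70 CPM in LPS and 17.6 and 18.3 CPM in control, against 6.85 and 6.93 CPM expected in control (log2 fold change of SLC plus LPS against control −3.97, SE 0.85, adjusted p = 0.0403; from 1.8e-07 to 0.218 over the alternatives).
Ccl17 had a further, uneven source. In SLC plus LPS replicate 2, alveolar macrophages held 42.3% of the library's Ccl17 UMIs, in 17 cells of 347, and in LPS replicate 1 they held 37.6%, in 13 cells of 361. The 10 cells with most Ccl17 held 85.1% and 92.7% of those UMIs. Alveolar macrophages of LPS replicate 2 had no Ccl17 UMI in 671 cells, which allows a level of up to 0.381 CPM.

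The genes whose level over 25 cell types was most like that of Ccl22 were Strip2 (Pearson r = 0.94), Il12b (r = 0.94), the shared subunit of interleukins 12 and 23, and Cabp4 (r = 0.93). For Ccl17 they were Timd4 (r = 0.96), a receptor for phosphatidylserine on dying cells, the serotonin receptor Htr7 (r = 0.94) and Ccl22 itself (r = 0.93). For Ccr7 they were Btla (r = 0.88), an inhibitory receptor of lymphocytes, H2-DMb2 (r = 0.87), which helps load peptides on MHC class II, and Phf11a (r = 0.86). The r values compare log2 of CPM plus 10. The points share the 6 libraries and differ in cell number, so these r values are descriptions only.

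Ccl21a, the CCR7 ligand of lymphatic vessels, was low after LPS together with the lymphatic endothelial cells that make it. Over whole libraries it was at 1.07 and 0 CPM in SLC plus LPS, 2.31 and 1.02 CPM in LPS and 20.9 and 9.86 CPM in control. Replicate 2 of SLC plus LPS does not list the gene, and 0 UMIs in that library allow up to 0.112 CPM. All treated libraries were below control, without passing the test: the log2 fold change was −4.42 (SE 1.19, adjusted p = 0.0579) for SLC plus LPS against control and −2.82 (SE 1.09, adjusted p = 0.150) for LPS against control. The difference for SLC plus LPS passed under a stricter cell filter (adjusted p = 0.0358), without likely doublets (0.0369), without either LPS library (0.0379 and 0.0371) and with no low-count filter (2.4e-16), in a range up to 0.221 over the alternatives. With no low-count filter LPS against control passed too (adjusted p = 3.1e-08), in a range up to 0.483. Lymphatic endothelial cells were 7 and 4 in SLC plus LPS, 10 and 17 in LPS and 83 and 61 in control, out of similar totals. Within them Ccl21a was at 813 and 0 CPM in SLC plus LPS, 850 and 757 CPM in LPS and 2842 and 1625 CPM in control. The treated values were below control here too, but they rest on 0 to 44 UMIs a library, no test was made, and the exact 95% interval of 0 of 4 cells reaches 60.2%. A Ccl21a UMI was in 28.6% and 0% of these cells in SLC plus LPS, 50% and 70.6% in LPS and 88.0% and 77.0% in control. Ccl21a has near-identical copies in the mouse genome, and the sources used here do not say how reads shared with them were counted. Genes most like it over cell types were Tagln3, Hoxd9 and Gm13304 (r = 0.97 each).

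Cxcl13, the ligand that draws B cells, had fibroblasts among its sources after LPS, at levels that differed widely between mice. Over whole libraries it was at 20.4 and 129.8 CPM in SLC plus LPS, 135 and 6.47 CPM in LPS and 47.6 and 43.1 CPM in control. Each treated group had 1 mouse above and 1 below both controls, and the log2 fold changes of 1.15 (SE 1.31, adjusted p = 0.577) and 1.04 (SE 1.30, adjusted p = 0.650) for SLC plus LPS and for LPS against control turned to −0.84 without SLC plus LPS replicate 2 and −2.46 without LPS replicate 1. With no low-count filter both passed at about the same size (adjusted p = 0.00188 for SLC plus LPS and 0.00694 for LPS), in a range up to 0.935 and 0.850 over the alternatives.
In fibroblasts Cxcl13 was at 154 and 975 CPM in SLC plus LPS, 1304 and 26.5 CPM in LPS and 3.82 and 6.16 CPM in control. All 4 treated libraries were above control, and above the 4.86 and 17.2 CPM in SLC plus LPS and 28.2 and 0.260 CPM in LPS that free RNA would give, while control fibroblasts were below the 6.40 and 9.48 CPM expected there. The log2 fold change was 6.95 (SE 1.90, unadjusted p = 0.00792) for SLC plus LPS against control and 7.20 (SE 1.92, unadjusted p = 0.00699) for LPS against control. By edgeR neither passed after adjustment over 11653 genes (adjusted p = 0.263 and 0.392), while DESeq2 called both (adjusted p = 0.0106 and 0.00997). Over the alternatives the adjusted p ran up to 0.999 for SLC plus LPS, and the size of the LPS difference was 2.44 without LPS replicate 1 and 8.17 without LPS replicate 2.
A Cxcl13 UMI was found in 6.84% and 24.4% of fibroblasts in SLC plus LPS, 29.6% and 3.06% in LPS and 1.32% and 0.999% in control. After thinning, the shares were 2.47% and 10.8%, 13.1% and 0.557%, and 0.294% and 0.222% in the same order. T cells, which served as the background at medians of 1394 to 2284 UMIs against 2464 to 5346 in fibroblasts, had shares of 0% and 1.48%, 2.91% and 0%, and 0.465% and 0.3%. A few cells carried most of it: the 10 fibroblasts with most Cxcl13 held 82.9% and 78.9% of the fibroblast UMIs in SLC plus LPS and 67.5% and 84.4% in LPS, and 1 fibroblast of LPS replicate 1 alone had 716. All fibroblasts with Cxcl13 carried the collagen gene Col1a2, which is among the markers that assigned them, while the macrophage gene C1qa was in 2.78% and 7.79% of them in SLC plus LPS, 0.870% and 4.55% in LPS and 0% and 0% in control. In fibroblasts without Cxcl13, C1qa was in 2.04% and 1.67% in SLC plus LPS, 2.92% and 0% in LPS and 0.696% and 0.747% in control. The leukocyte gene Ptprc was in 13.9% and 12.99% of fibroblasts with Cxcl13 in SLC plus LPS, 26.1% and 13.6% in LPS and 0% and 11.1% in control. In fibroblasts without Cxcl13 it was in 10.6% and 7.95%, 16.1% and 8.19%, and 9.80% and 7.47% in the same order. Ptprc was thus more frequent with Cxcl13 in all 4 treated libraries, and its part in the Cxcl13 level was not tested. The C1qa and Ptprc shares are of cells that were not thinned. Adventitial fibroblasts, which line vessels and airways, had 313 and 1453 CPM in SLC plus LPS, 2206 and 50.4 CPM in LPS and 3.74 and 11.4 CPM in control. Alveolar fibroblasts were lower in every treated library, at 51.7 and 266 CPM, 590 and 18.8 CPM, and 3.83 and 2.48 CPM in the same order.

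Interstitial macrophages were the main source of Cxcl13 in control lung. They held 36.4% and 51.6% of the gene's UMIs in SLC plus LPS, 29.7% and 43.6% in LPS and 88.0% and 88.3% in control, while fibroblasts held 54.6% and 41.0%, 58.9% and 27.5%, and 1.80% and 3.80% in the same order. Neither share overlapped between treated and control libraries. The level within interstitial macrophages was 77.8 and 568 CPM in SLC plus LPS, 324 and 53.8 CPM in LPS and 524 and 487 CPM in control, so that 1 of the 4 treated libraries was above control. The fibroblast marker Col1a2 was in 53.6% and 32.8% of those with Cxcl13 in SLC plus LPS, 45.2% and 17.65% in LPS and 35.8% and 38.3% in control. Without Cxcl13 it was in 32.4% and 31.0%, 36.6% and 5.02%, and 37.45% and 33.4% in the same order. Col1a2 was thus more frequent with Cxcl13 in every library but control replicate 1, and its part in the Cxcl13 level was not tested. The Col1a2 shares are of cells that were not thinned. Macrophages with Folr2, a folate receptor of resident macrophages, had 182 and 1480 CPM in SLC plus LPS, 1271 and 59.8 CPM in LPS and 422 and 432 CPM in control. Those without a Folr2 UMI had 32.6 and 268 CPM, 58.0 and 50.9 CPM, and 670 and 545 CPM in the same order. Cxcl13 was thus higher in the Folr2 cells of each treated library and lower in those of both controls. The 10 interstitial macrophages with most Cxcl13 held 84.8% and 74.5% of this type's UMIs in SLC plus LPS and 83.4% and 93.4% in LPS. In control they held 39.0% and 42.5%. The split in the treated libraries thus rests on few cells, and it was not tested. The genes most like Cxcl13 over cell types were Igf1 (r = 0.87), a growth factor, the monocyte chemokine Ccl7 (r = 0.86) and Olfml3 (r = 0.84), all 3 led by fibroblasts or interstitial macrophages.

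**Figure D4:**
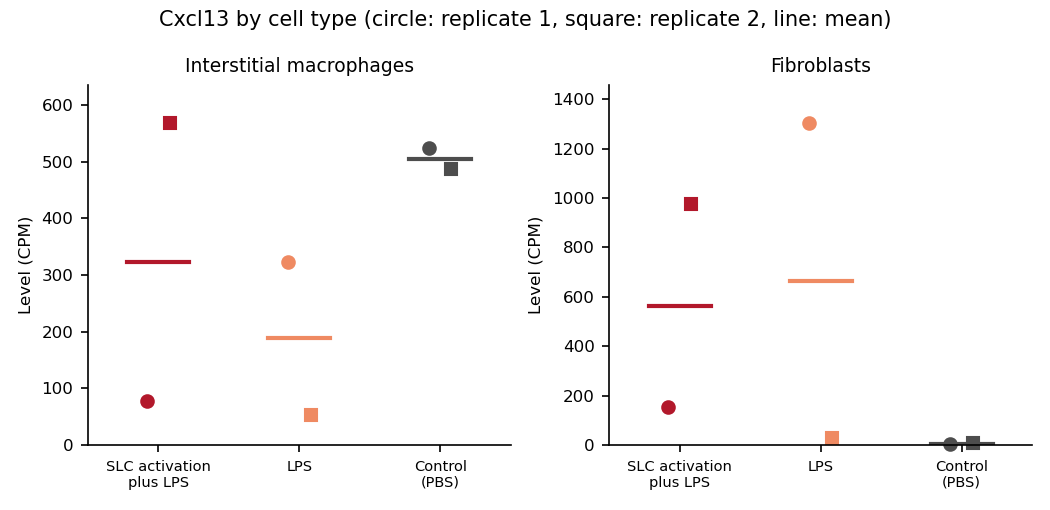
CPM of Cxcl13 in interstitial macrophages and fibroblasts of each library on a linear axis from 0; circles are replicate 1, squares replicate 2, and the line is the group mean. Fibroblasts run from 26.5 to 1304 CPM in the treated libraries and from 3.82 to 6.16 CPM in control, and the treated mice of a group lie far apart in both cell types.

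Cxcr5, the receptor for CXCL13, was found in B cells of all groups, and its CPM there was highest in LPS. B cells had 96.2 and 75.1 CPM in SLC plus LPS, 124 and 168 CPM in LPS and 62.4 and 71.4 CPM in control. The 3 groups did not overlap. In B cells the log2 fold change for LPS against control was 1.13 (SE 0.25, unadjusted p = 0.00113), which did not pass over the 8437 genes of B cells (adjusted p = 0.0945). It passed without LPS replicate 1 (adjusted p = 0.00779) and with no low-count filter (0.0221), in a range from 0.00779 to 1.00 over the alternatives. A Cxcr5 UMI was in 10.3% and 7.51% of B cells in SLC plus LPS, 12.9% and 21.2% in LPS and 6.86% and 6.67% in control, and after thinning in 6.90% and 4.50%, 4.48% and 5.93%, and 2.70% and 3.25%. After thinning SLC plus LPS and LPS thus overlapped, both above control, and LPS was no longer the highest. Over whole libraries the gene was at 3.12 and 3.31 CPM in SLC plus LPS, 5.19 and 6.33 CPM in LPS and 5.91 and 5.59 CPM in control, with fewer B cells in both treated groups: 1.08% and 2.57%, 3.74% and 5.38%, and 12.0% and 10.1% in the same order. Neutrophils held 57.8% and 31.5% of the gene's UMIs in SLC plus LPS, 33.8% and 15.3% in LPS and 12.95% and 9.55% in control, and B cells held 13.8% and 31.5%, 41.0% and 64.6%, and 63.7% and 60.5% in the same order. The level in neutrophils was low, 6.76 and 4.47 CPM in SLC plus LPS, 7.71 and 4.02 CPM in LPS and 7.99 and 8.05 CPM in control. Of the genes most like Cxcr5 over cell types, Cr2 (r = 0.90) is a complement receptor of B cells, and the others were Gm20429 (r = 0.92) and Niban3 (r = 0.91).

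Ccr4, the receptor for CCL17 and CCL22, was seen in few cells. Over whole libraries it was at 0.457 and 0.818 CPM in SLC plus LPS, 0.399 and 1.34 CPM in LPS and 0.949 and 0.961 CPM in control, with log2 fold changes of −0.21 (SE 0.66, adjusted p = 0.851) for SLC plus LPS and 0.24 (SE 0.64, adjusted p = 0.846) for LPS against control. T cells held 51.9% to 72.7% of its UMIs in each library. T cells had 19.2 and 15.7 CPM in SLC plus LPS, 6.97 and 22.7 CPM in LPS and 8.30 and 9.15 CPM in control, from only 10 to 35 UMIs a library. Both SLC plus LPS mice were above control, and LPS had 1 mouse on either side. Among T cells with Cd4 and no Cd8 UMI, Ccr4 was at 46.6 and 95.1 CPM in SLC plus LPS, 34.4 and 52.6 CPM in LPS and 14.6 and 19.99 CPM in control, from 5 to 14 UMIs a library. No group overlapped control in these helper-type cells, and no test was made on counts this small. Among T cells with Cd8 and no Cd4 UMI the only Ccr4 UMI in the 6 libraries was in control replicate 1. Il17a (r = 0.99), the cytokine of type 17 T cells, Trgc1 (r = 0.99), a constant segment of the gamma T cell receptor, and Cd6 (r = 0.98) were the genes most like Ccr4 over cell types, all led by T cells. With 10 CPM added before the log and Ccr4 at most 13.7 CPM, these r values rest mostly on T cells as a whole. They place Ccr4 in no T cell subset.

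Ccr7 outside mature dendritic cells had no change that passed over whole libraries. Over whole libraries it was at 11.1 and 52.5 CPM in SLC plus LPS, 49.0 and 17.0 CPM in LPS and 73.6 and 49.7 CPM in control (log2 fold changes −0.54, SE 0.79, adjusted p = 0.674, and −0.51, SE 0.79, adjusted p = 0.715, for SLC plus LPS and for LPS against control). Each treated group had 1 low and 1 high mouse. B cells had 192 and 391 CPM in SLC plus LPS, 267 and 168 CPM in LPS and 330 and 261 CPM in control. T cells had 34.5 and 140 CPM in SLC plus LPS, 116 and 130 CPM in LPS and 124 and 120 CPM in control, so that SLC plus LPS replicate 1 was low alone. T cells with at least 2 UMIs of Lef1, Tcf7, Igfbp4 or Dapl1, genes of naive and memory T cells, had 61.7 and 225 CPM in SLC plus LPS, 185 and 164 CPM in LPS and 190 and 186 CPM in control. The other T cells had 20.4 and 87.5 CPM, 56.4 and 94.9 CPM, and 72.4 and 84.6 CPM in the same order, lower in each of the 6 libraries. In cDC2, Ccr7 was at 282 and 1230 CPM in SLC plus LPS, 256 and 726 CPM in LPS and 386 and 290 CPM in control, from 16 to 32 cells in each treated library.

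S1pr1 was strongest in blood endothelial cells, at levels that did not differ between groups beyond their spread. They had 1662 and 1048 CPM in SLC plus LPS, 1331 and 1237 CPM in LPS and 1252 and 1143 CPM in control. SLC plus LPS spanned the values of both other groups. Aerocytes, the large capillary cells at the gas exchange surface, had 2022 and 1675 CPM in SLC plus LPS, 2211 and 1337 CPM in LPS and 1971 and 1531 CPM in control, above the general capillary cells (1647 and 808 CPM, 911 and 1225 CPM, and 997 and 1000.4 CPM) in every library. Lymphatic endothelial cells had 181 and 316 CPM in SLC plus LPS, 348 and 401 CPM in LPS and 391 and 404 CPM in control. Over whole libraries S1pr1 was at 38.4 and 25.8 CPM in SLC plus LPS, 28.8 and 109 CPM in LPS and 132 and 89.9 CPM in control, with log2 fold changes of −1.43 (SE 0.58, adjusted p = 0.143) for SLC plus LPS against control and −0.32 (SE 0.57, adjusted p = 0.753) for LPS against control. Both SLC plus LPS mice were below control, and the difference passed without LPS replicate 1 (adjusted p = 0.0168) or replicate 2 (0.0163) and with no low-count filter (7.03e-05), in a range up to 0.433. LPS against control was −1.54 (adjusted p = 0.0360) without LPS replicate 2 and 0.33 without replicate 1, in a range of adjusted p up to 0.982. Blood endothelial cells were 2.12% and 0.734% of cells in SLC plus LPS, 1.15% and 6.00% in LPS and 9.53% and 5.30% in control.

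In T cells S1pr1 set the 2 LPS mice apart. T cells had 130.3 and 130.5 CPM in SLC plus LPS, 97.6 and 553 CPM in LPS and 232 and 263 CPM in control. Both SLC plus LPS mice were below control, and the LPS mice lay 1 below and 1 above all other libraries. The log2 fold change was −0.89 (SE 0.73, adjusted p = 0.821) for SLC plus LPS against control, 0.41 (SE 0.70, adjusted p = 0.939) for LPS against control and −1.30 (SE 0.74, adjusted p = 0.972) for SLC plus LPS against LPS. Leaving out 1 LPS mouse decided these values: LPS against control was −1.28 (adjusted p = 0.00727) without replicate 2 and 1.18 (adjusted p = 0.00272) without replicate 1. SLC plus LPS against control kept its size without either LPS mouse, −0.88 each time, and passed (adjusted p = 0.0187 without replicate 1 and 0.0221 without replicate 2; 0.0187 to 1.00 over all alternatives). SLC plus LPS against LPS was −2.06 (adjusted p = 5.19e-05) without LPS replicate 1 and 0.40 without replicate 2.
In B cells too LPS replicate 2 was the highest library, with S1pr1 at 138 and 209 CPM in SLC plus LPS, 149 and 479 CPM in LPS and 231 and 278 CPM in control. T cells with a UMI of Cd69, whose product takes S1PR1 off the cell surface, had 70.7 and 75.4 CPM of S1pr1 in SLC plus LPS, 73.9 and 317 CPM in LPS and 161 and 116 CPM in control. T cells without Cd69 had 159 and 177 CPM, 117 and 617 CPM, and 264 and 310.2 CPM in the same order. The level was lower with Cd69 in each of the 6 libraries, and LPS replicate 2 was the highest library on both sides. S1pr1 was also found more often in T cells with a Ccr7 UMI, at 33.3% and 24.2% in SLC plus LPS, 25.5% and 67.9% in LPS and 47.4% and 45.1% in control, than in T cells without one, at 18.3% and 18.0%, 16.9% and 56.7%, and 27.5% and 21.9%. T cells were not thinned for these shares, and a cell with more UMIs shows either gene more often. The genes most like S1pr1 over cell types were Garre1 (r = 0.83), Impdh1 (r = 0.82) and Spns2 (r = 0.77), the last of which exports sphingosine 1-phosphate from endothelial cells.

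**Figure D5:**
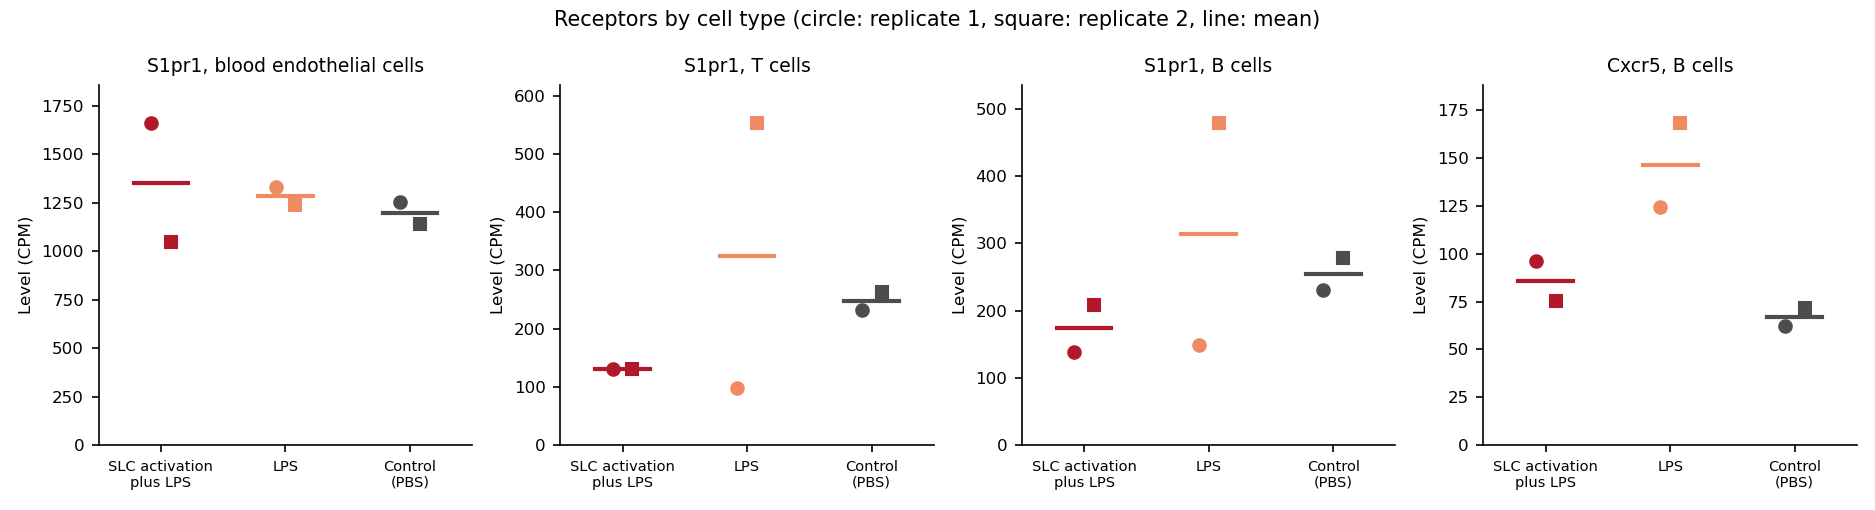
CPM of S1pr1 in blood endothelial cells, T cells and B cells, and of Cxcr5 in B cells, for each library on linear axes from 0; circles are replicate 1, squares replicate 2, and the line is the group mean. LPS replicate 2 is the highest library for S1pr1 in T cells (553 CPM) and B cells (479 CPM), and Cxcr5 in B cells is highest in the LPS group (124 and 168 CPM).

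Of 42 further genes of these pathways, 39 were measured and 34 could be tested over whole libraries. For SLC plus LPS against control 1 was called higher and 3 lower, with a median log2 fold change of −0.43 (−0.0071 over all 17900 genes), and for LPS against control 0 were higher and 1 lower, with a median of −0.05 (−0.02 over all genes). In the SLC plus LPS against LPS comparison 0 were called by edgeR, with a median of −0.36 (0.0012 over all genes). The shares called over all genes, given above, were 12.4% and 7.84% for the comparisons with control. As group means, neutrophils were 45.9% of cells in SLC plus LPS, 36.3% in LPS and 15.1% in control. Fibroblasts were 3.18%, 4.51% and 18.9% in the same order, so whole-library levels mix cell make-up with level per cell. Of 5 other homing ligands tested, only Ccl1, a ligand of CCR8, was called, at 0.0537 and 0.0743 CPM in SLC plus LPS, 0.0532 and 0.0924 CPM in LPS and 0.796 and 0.855 CPM in control (log2 fold changes −3.28, adjusted p = 0.0303, and −3.06, SE 0.57, adjusted p = 0.0331). The treated levels of Ccl1 are near 0 and rest on very few UMIs a library. Of 7 other homing receptors none was called in any of the 3 comparisons. Of 4 scavenging receptors, which take up chemokines without signalling through G proteins, Ackr2 was lower in SLC plus LPS, at 2.20 and 1.34 CPM, with 3.09 and 6.91 CPM in LPS and 14.5 and 8.01 CPM in control (log2 fold change of SLC plus LPS against control −2.30, adjusted p = 0.0408).
Of 12 genes of sphingosine 1-phosphate metabolism and signalling, 2 were called, both for SLC plus LPS against control and in opposite directions. Sgpl1, the lyase that breaks sphingosine 1-phosphate down, was higher, at 394 and 420 CPM in SLC plus LPS, 389 and 214 CPM in LPS and 174 and 163 CPM in control (log2 fold change 1.65, SE 0.32, adjusted p = 0.0322). Plpp3, a phosphatase of lipid phosphates at the cell surface, was lower, at 60.6 and 60.2 CPM in SLC plus LPS, 52.8 and 177 CPM in LPS and 370 and 441 CPM in control (log2 fold change −2.38, adjusted p = 0.0384). Of 6 tested signals that organise lymphoid tissue none was called in any of the 3 comparisons over whole libraries. Within cell types, neutrophils had less Tnfsf14, the cytokine LIGHT, with log2 fold changes of −1.81 (SE 0.32, adjusted p = 0.0290) for SLC plus LPS against control and −1.40 (SE 0.32, adjusted p = 0.0479) for LPS against control.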

How the data were processed

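Single cells from the 6 lungs were captured in BD Rhapsody microwells, and whole-transcriptome libraries were sequenced on a DNBSEQ-T7 with 150 bp paired reads, per the labels' protocols. The authors deposited UMI counts per gene and cell barcode for each library, not filtered to cells; the genome build is GRCm39 (mm39), per the submitters' processing notes, and no counting tool is named in them. A barcode was kept as a cell from 500 UMIs and 300 genes upward if less than 20% of its UMIs were mitochondrial. No doublet caller was used in the main results. Each cell was given a type from marker genes, with at least 2 markers above what free RNA would give (a part of 0.3 of the profile of barcodes under 100 UMIs was allowed for) and a score of at least 6; between 4.69% and 26.8% of cells had no type and 1.88% to 4.04% were mixed. Counts were summed per library and cell type and tested with edgeR 4.0.16 in R 4.3.3 (quasi-likelihood test, TMM, all 6 libraries in 1 fit, Benjamini-Hochberg adjustment over all genes of a cell type, threshold 0.05), for types with at least 20 cells in every library; mature dendritic cells were tested with at least 10. DESeq2 1.42.0 was an alternative. Matrices were read with Python 3.11.15, numpy 2.4.6, scipy 1.17.1 and scanpy 1.11.5. The tests were run on simulated counts with the same set spread for all genes, which cannot show their error rate at the spread between these mice. Binomial intervals and limits from a count of 0 (3 counts) cover counting error only. Genes are named as the 8 members, the 3 genes most like each and called genes of the pathway lists, 1 of which is not reported here.

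The 8 genes, the markers and the pathway lists were chosen with earlier results of these data known, so none of them is independent of the data.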

Additional observations from a re-analysis of the deposited data

How the results depend on the processing

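A set of 37 results on the 8 genes was followed through the alternatives, and 13 of them passed the threshold. The set does not hold all tests made. Within cell types, results were taken because they had passed or are named above, so 13 of 37 is not a rate. None of those 13 changed direction under any alternative. Results picked for passing tend to keep their direction, and several lost their call, as given above. The alternatives were another normalization or tool (DESeq2), no low-count filter, a stricter cell filter, a stricter gate and likely doublets left out. A replicate block, a crossed block and each library left out were also run. Of the 24 that did not pass, 12 changed direction. The cause of these changes was not tested. With 2 mice per group, 1 library decides most values, and the leave-one-out fits with a single mouse in a group assume that it varies like the others; sparse UMIs limit Ccr4 and Ccl21a.

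The count of the 8 genes called over whole libraries, 2 for SLC plus LPS against control, 2 for LPS against control and 0 for SLC plus LPS against LPS, was 5, 4 and 1 with no low-count filter, and the replicate block gave 1 for SLC plus LPS against control, where Ccl17 was lost (adjusted p = 0.0537). Same-numbered replicates did not deviate together (correlations of 0.05, −0.11 and −0.17 over 17900 genes), so the block pairs only numbers; the crossed pairing gave 2, 2 and 0 calls. Within cell types the counts of 3, 3 and 0 were 9, 8 and 1 with no low-count filter, and DESeq2 gave 7 for SLC plus LPS against control. Leaving out 1 library gave 0 to 4, 0 to 3 and 0 over whole libraries, and 0 to 10, 0 to 9 and 0 to 4 within cell types. Over all genes of the whole libraries, 931 were called higher and 1284 lower for SLC plus LPS against control, against 265 and 221 with the replicate block, 1745 and 2375 by DESeq2, 1960 and 2892 with no low-count filter, 0 without either control library or SLC plus LPS replicate 2, and 98 and 10 without SLC plus LPS replicate 1. For LPS against control 709 were higher and 695 lower, against 197 and 106 with the block, 1486 and 1696 by DESeq2, 1779 and 2262 with no filter and 0 without either control library. The leading cell type was unchanged for 7 of 8 genes after thinning.

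Values of uncalled genes that changed sign are log2 fold changes. Under the stricter cell filter they were 0.39 for S1pr1 (whole library, LPS against control), 0.24 for Ccr4 and 0.20 for Cxcr5 (whole library, SLC plus LPS against control), and −0.0011 for Ccr7 in mature dendritic cells (SLC plus LPS against control), which was also −0.059 without likely doublets and −0.042 under the stricter gate. Cxcl13 over whole libraries was −0.37 for LPS against control with the crossed replicate block. With 1 library left out, whole-library values for SLC plus LPS against control ran from −0.75 to 0.30 for Ccr4, −2.16 to 0.29 for Ccr7 and −0.84 to 2.04 for Cxcl13. For LPS against control they ran from −0.85 to 0.83 for Ccr4, −1.51 to 0.078 for Ccr7, −2.46 to 1.98 for Cxcl13 and −1.54 to 0.33 for S1pr1. In T cells S1pr1 ran from −1.28 to 1.18 for LPS against control and −2.06 to 0.40 for SLC plus LPS against LPS. Ccr7 in mature dendritic cells ran from −0.57 to 0.50 for SLC plus LPS against control and −1.47 to 0.22 for LPS against control.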

Other observations

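Further genes of the homing and sphingosine 1-phosphate lists were called by edgeR's test within single cell types. Interstitial macrophages of LPS lungs had more Itgb7 (an integrin chain of gut homing; log2 fold change against control 4.55, SE 1.02, adjusted p = 0.0459) and Cd69 (2.16, SE 0.45, adjusted p = 0.0388). For SLC plus LPS against control these genes were not called in interstitial macrophages, and whether the comparisons differ was not tested. Plpp3 was lower in alveolar type 2 cells for SLC plus LPS against LPS (−3.16, SE 0.47, adjusted p = 0.0353), the only call of these lists in that comparison. Against control it was lower in neutrophils of SLC plus LPS (−2.84, adjusted p = 0.0176) and LPS (−2.63, adjusted p = 0.0156). B cells of LPS also had less (−2.90, adjusted p = 0.0372). Free RNA was not estimated for Plpp3.

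Fibroblasts with Cxcl13 were set beside those without it for Ccl19, the other CCR7 ligand. Ccl19 was in 10.4% of fibroblasts with Cxcl13 and 6.28% of those without it in SLC plus LPS replicate 2, and in 13.9% and 7.66% in LPS replicate 1, the 2 libraries with most such fibroblasts. The shares were 13.9% and 6.735% in SLC plus LPS replicate 1 and 4.55% and 2.59% in LPS replicate 2. Control went the other way, with 0% and 1.19% in replicate 1 and 0% and 1.49% in replicate 2. Cells were not thinned for these shares. No test was made, since cells of 1 library share their mouse.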
